A study of Mus musculus with 9 samples.

Results

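P19 NTES7 is a mouse stem cell line derived from blastocysts that were cloned by injecting nuclei of P19 cells into enucleated oocytes, and it was set against P19, the embryonal carcinoma line that gave the nuclei. The 6 arrays of this comparison, 3 of P19 and 3 of the derived line, were taken from the 9 arrays of the series by their titles, and the other 3 hold R1, an embryonic stem (ES) cell line that serves here only as a level for reference. The titles call the derived line only P19 cells derived pluripotent stem cells, and the study's results and tables name P19 NTES7 as the line on the arrays. All 3 lines were untreated and grown in the same medium with serum and leukemia inhibitory factor (LIF). The derived line is 1 clone, so the spread between its arrays is that of 1 line and not of nuclear transfer as a procedure. According to the methods, derived lines and R1 were grown on mouse embryonic fibroblasts stopped with mitomycin C, P19 cells were not, and ES cells were collected feeder free for the arrays. Arrays of 1 line are titled biological replicates. Since no source used here says whether separate cultures were taken, each p-value measures the spread between these arrays, which may be technical.

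Embryonal carcinoma cells are the stem cells of teratocarcinomas. They share the factors Pou5f1, Sox2 and Nanog with the early embryo, yet they contribute poorly to embryos. In nuclear transfer, the cytoplasm of an oocyte resets much of the chromatin of the donor nucleus, after which an ES line can be grown from the inner cell mass of the cloned blastocyst, while the DNA sequence of the donor stays as it was. ES cells in the naive state use a circuit of factors such as Esrrb, Klf4 and Nanog that LIF helps to maintain, and cells of the later, primed epiblast depend on FGF and Nodal signals and express genes such as Fgf5.

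Each level below is a deposited intensity on the linear scale, each fold is the ratio of geometric means on that scale, and each difference is in log2 units, P19 NTES7 minus P19, with its standard error from limma. Adjusted p-values are Benjamini-Hochberg values from limma over all 28853 probe sets. The array medians ran from 16.5 to 17.5. A level under the median of all values, 16.9, is close to the array's floor, and a fold that starts or ends there is not exact and may understate the change. The arrays of a line correlated at r of 0.989 or more over all probe sets, and the correlation between arrays of P19 and P19 NTES7 ran from 0.972 to 0.978.

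The labelled cell types were checked first. Of 8 pluripotency markers all were above the array median in all 3 lines, with summed levels from 5829 to 6150.0 on the P19 arrays, 4894 to 5568 on the P19 NTES7 arrays and 6983 to 7108 on the R1 arrays. The 36 measured fibroblast and feeder cell markers summed to between 1067 and 1093 on the P19 arrays, 3207 and 3940.4 on the P19 NTES7 arrays and 5199 and 5966 on the R1 arrays. Of the 11 measured defining fibroblast markers, 7 were below the array median in P19 and 1, Lum, in P19 NTES7. Of 5 measured markers of blood and endothelial cells, 5 were below the median in P19 and 3 in P19 NTES7. In bulk RNA of this kind, more cells of a type and more RNA per cell cannot be told apart.

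The derived line differed from P19 in genes over a wide range of levels and in both directions. With 1 probe set per gene, 19941 genes were tested and 566 (2.84%) were called. P19 NTES7 was the higher line in 290 of them (1.45% of all genes) and the lower in 276 (1.38%). A call means an adjusted p under 0.01 and a fold over 2. Against R1, 902 genes (4.52%) were called, with P19 NTES7 higher in 334 (1.67%) and lower in 568 (2.85%). The median difference of all genes was 0.02. The arrays of the 2 lines did not overlap in 36.2% of genes, so separation of the arrays alone is common here. The largest rise was that of Usp26, an X-linked deubiquitinase gene, and it was followed by H19, Tnc, Bgn and Fosb. The largest falls were those of Eif2s3y, Nr0b1, Kdm5d, Uty and Mapkapk2.

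**Figure D1:**
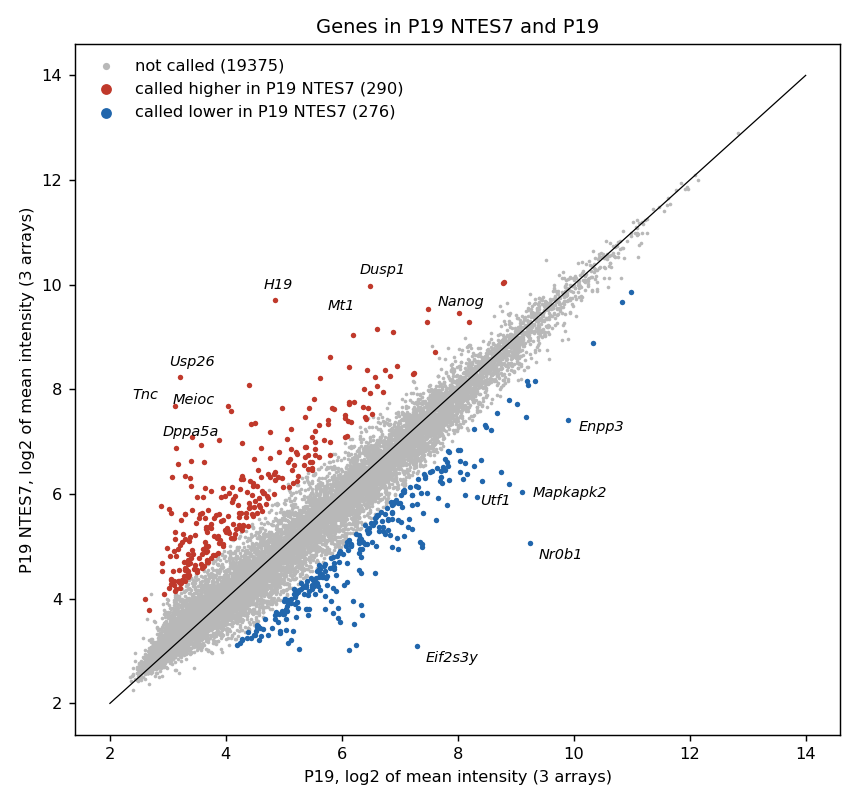
Each point is 1 of 19941 genes, with the log2 of its mean intensity over the 3 P19 arrays on the horizontal axis and over the 3 P19 NTES7 arrays on the vertical axis. The line marks equal levels. The 290 genes called higher reach from near the array floor in P19 to levels such as that of H19, and the 276 called lower include Nr0b1 and Eif2s3y far below the line.

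The 30 largest rises included matrix genes, early response genes, pluripotency genes and germ cell genes. H19, a maternally expressed imprinted noncoding RNA, measured 24.8, 28.6 and 32.8 on the P19 arrays and 995, 756 and 758 on the P19 NTES7 arrays. The lines did not overlap, and P19 NTES7 was 29-fold higher (log2 difference 4.86 ± 0.13, adjusted p = 7.85e-11). R1 stood between them, at 497, 496 and 508. The study prints lower H19 means for all 3 lines, with a smaller fold. Where a gene had several probe sets, the brightest was used here. Rps4l, a ribosomal protein S4-like gene, measured 29, 32.8 and 32.1 in P19 and 208, 203 and 186 in P19 NTES7, against 232, 246 and 234 in R1 (adjusted p = 6.34e-10 against P19 and 0.0644 against R1). Them5, a thioesterase gene, measured 10.1, 10.3 and 9.22 in P19, 87.6, 87.4 and 70.4 in P19 NTES7 and 9.35, 8.66 and 10.6 in R1. P19 NTES7 alone was raised in this gene, 8.26-fold over P19 with a log2 difference of 3.1 ± 0.12 from R1 (adjusted p = 1.19e-09 and 6.04e-10). Parp12, an interferon-inducible ADP-ribosyltransferase gene, rose 8.9-fold from 14.8 ± 1.51 to 131 ± 5.8 (mean ± SD, n = 3 arrays; adjusted p = 1.14e-09), with R1 at 63.3 ± 9.4. H2ac1, a histone H2A gene, rose 5.82-fold from 97.6 ± 2.7 to 569.6 ± 50.8 (adjusted p = 2.36e-07).

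The 30 largest falls included Y-linked genes, pluripotency genes and kinases. Mapkapk2, the kinase that acts below p38, measured 497, 562 and 595 on the P19 arrays, 68.7, 65.9 and 62.9 on the P19 NTES7 arrays and 71.5, 84.1 and 72.3 on the R1 arrays. P19 stood apart from both other lines, with P19 NTES7 8.36-fold lower than P19 (adjusted p = 4.86e-10) and at a log2 difference of -0.20 ± 0.10 from R1. Enpp3, an ectonucleotide pyrophosphatase, measured 966, 997 and 898 in P19, 187, 166 and 160.4 in P19 NTES7 and 290.4, 273 and 268 in R1, a 5.58-fold fall from P19 (adjusted p = 1.52e-09). Prmt8, an arginine methyltransferase, fell 6.43-fold, from 73.7 ± 7.11 to 11.4 ± 0.815 (adjusted p = 1.52e-09), and was also below R1 at 35.4 ± 2.13 (adjusted p = 9.27e-08). In several of the falls P19 alone was raised: Spon1, Vat1l, Slc35d3, Il20ra, Gabra3 and Shisa6 were below the array median in both P19 NTES7 and R1. Spon1, which encodes the matrix protein spondin 1, measured 78.1, 80.4 and 84.1 in P19, 15.8, 14.6 and 13.7 in P19 NTES7 and 12.3, 13.3 and 11.7 in R1 (adjusted p = 1.53e-09 against P19).

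Most of the called genes of the naive network rose, with Nr0b1 as the exception, while Pou5f1 and Sox2 were not called. Of 19 measured members, 10 rose in P19 NTES7 and 1 fell, together 57.9% against 2.84% of all genes. The median difference of the list was 1.01. Nanog measured 186, 187 and 159.6 in P19, 619, 640.0 and 622 in P19 NTES7 and 956, 939 and 846 in R1. The lines did not overlap and P19 NTES7 was 3.54-fold above P19 (adjusted p = 4.28e-08). Dppa5a, an RNA-binding protein gene of ES cells, measured 21.2, 19.5 and 17.9 in P19, 115, 125 and 136 in P19 NTES7 and 2314, 2385 and 2016 in R1. It rose 6.42-fold (adjusted p = 2.10e-09) and still lay -4.16 ± 0.11 log2 units from R1, the largest gap to R1 among the 11 called members of the list. Lncenc1, a noncoding RNA of naive ES cells that is not on the list, rose 7.49-fold, from 21.6 ± 2.59 to 161 ± 8.59 (adjusted p = 7.34e-10), with R1 at 916 ± 8.98.

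Among the Krüppel-like factors, which share targets in naive cells, the 3 on the list rose together. Klf4 rose 3.17-fold, Klf5 3.03-fold and Klf2 2.53-fold (adjusted p = 1.23e-07, 4.21e-07 and 3.86e-05). All of them stayed below R1, by log2 differences of -1.6, -1.04 and -1.61 (adjusted p = 8.24e-08, 1.42e-05 and 4.37e-06). Klf5 lies on chromosome 14, in a window of neighbouring genes whose median log2 difference from P19 was 0.99 in R1 and 0.15 in P19 NTES7. The part of these neighbours' levels in the gap between Klf5 in P19 NTES7 and R1 was not tested. Esrrb, an orphan nuclear receptor, rose 3.51-fold (adjusted p = 1.28e-07) and Fbxo15, an F-box gene driven by Pou5f1 and Sox2, 5.02-fold (adjusted p = 9.96e-08). Zfp42 measured 25.6, 17.6 and 15.8 in P19 and 40.6, 45.2 and 39.1 in P19 NTES7 (adjusted p = 2.51e-04), and without the third P19 array its log2 difference was 0.97, under the limit of the call. Against R1, 0 of the naive list were higher in P19 NTES7 and 14 of 19 lower, where 2.85% of all genes were lower.

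Nr0b1 and Utf1, which fell, were high in both P19 and R1. Nr0b1, an X-linked nuclear receptor gene, measured 702, 669 and 449 in P19, 33.3, 33.6 and 34.1 in P19 NTES7 and 565, 558 and 561 in R1. Utf1, a chromatin-associated factor of pluripotent cells, measured 522, 500.4 and 391 in P19, 94.8, 54.3 and 71.3 in P19 NTES7 and 649.8, 606 and 496 in R1. In both genes only the P19 NTES7 arrays were low, with falls of 17.7-fold and 6.53-fold against P19 (adjusted p = 4.76e-10 and 2.64e-07). Pou5f1 measured 2268, 2249 and 2071 in P19 and 1663, 1265 and 1485 in P19 NTES7, where the arrays did not overlap but the 1.5-fold difference was under the limit of the call. Sox2 had a log2 difference of -0.29 ± 0.10 (adjusted p = 0.0606) and Tdgf1, the Nodal coreceptor, of 0.04 ± 0.10 (adjusted p = 0.838).

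Genes of the primed epiblast divided. Of 15 measured, 5 were called lower and 2 higher, together 46.7% against 2.84% of all genes, with a median difference of -0.62. The 7 calls became 4 without the second P19 NTES7 array, when Fgf5, Foxd3 and Pim2 lost theirs (log2 differences of 0.98, -0.98 and -0.99). Zic5, a zinc finger factor, fell 2.69-fold and Sall2, a spalt-like factor, 2.93-fold (adjusted p = 5.23e-05 and 2.04e-06). Sall2 lies on chromosome 14, in a window of 25 neighbouring genes with a median of -0.31. Etv4, an ETS factor that responds to FGF, fell 2.25-fold (adjusted p = 2.08e-04). The growth factor genes went the other way. Fgf8 measured 21, 24.4 and 20.8 in P19, 75.4, 67.6 and 70.6 in P19 NTES7 and 25.6, 27.1 and 31.5 in R1, so that P19 NTES7 stood above both lines (adjusted p = 1.85e-07 and 9.05e-07). Fgf5 rose 2.05-fold (adjusted p = 0.00111), but its log2 difference was 0.85 without the third P19 array, 0.98 without the second P19 NTES7 array and 0.97 without the third, each under the limit.

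**Figure D2:**
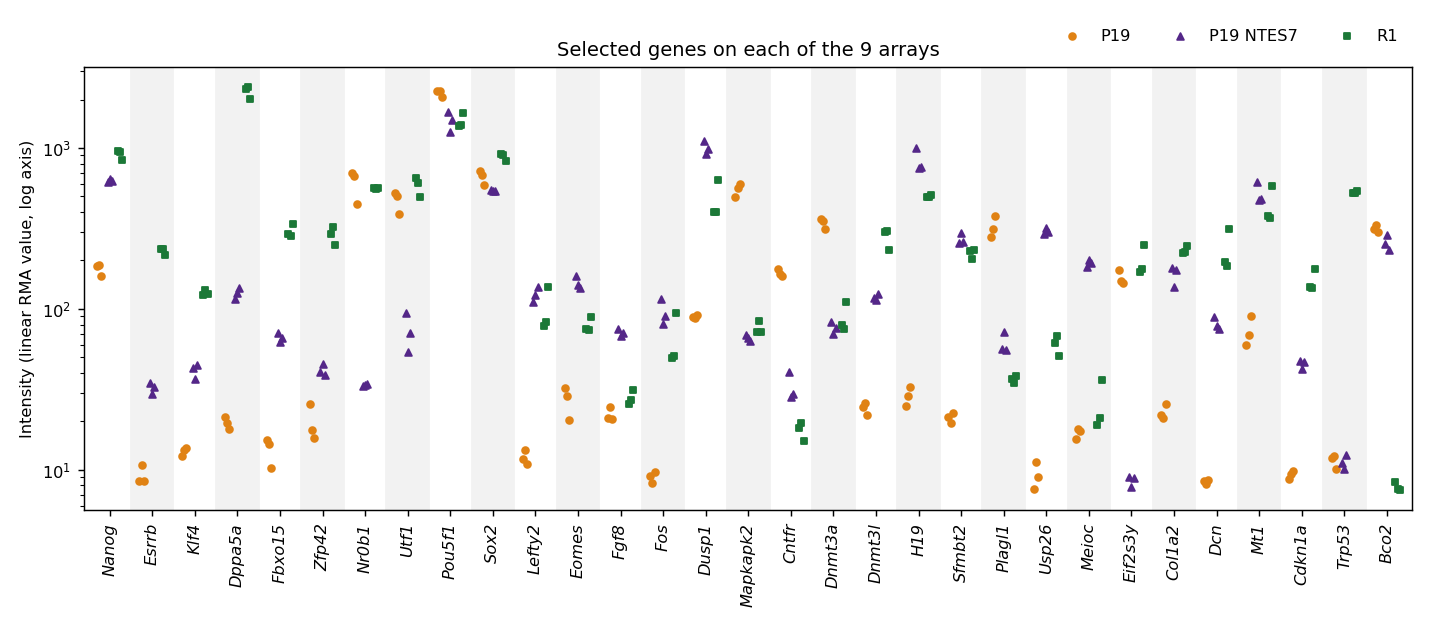
Intensities of 31 selected genes on each of the 9 arrays, on a log axis, with 3 points per line for P19, P19 NTES7 and R1. Nanog, Esrrb and Dppa5a show P19 NTES7 between P19 and R1, Nr0b1 and Utf1 show only P19 NTES7 low, Usp26 and Meioc show it highest, and Trp53 and Bco2 show it beside P19.

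Nodal signaling is read most directly from the Lefty genes, which encode its feedback inhibitors. Lefty2 measured 11.6, 13.3 and 10.9 in P19, 110.1, 122 and 136 in P19 NTES7 and 78, 82.5 and 136 in R1. Of 19 measured genes of the Nodal list it was the 1 called (10.3-fold higher, adjusted p = 3.45e-08). That share was 5.26%, against 2.84% of all genes, and the median difference of the list was -0.14. All P19 NTES7 arrays lay below all P19 arrays in 7 members and above them in 5. Over all 19941 genes these counts were 3782 and 3446. Of other genes of the pathway that were chosen after their values were seen, Lefty1 measured 62.2, 64.6 and 71.5 in P19 and 148, 118 and 111 in P19 NTES7 (adjusted p = 0.0123), and the ligand gene Nodal 46.8, 44.8 and 41.4 in P19 and 64.7, 58.1 and 58.7 in P19 NTES7 (adjusted p = 0.0167). In both the P19 NTES7 arrays lay above those of P19 without passing the test.

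Genes of the primitive streak, the site where mesoderm and endoderm form and where Nodal, FGF and WNT signals act, rose in part. Of 18 measured, 6 were called higher and 0 lower, or 33.3% against 2.84% of all genes, with a median difference of 0.29. Eomes, a T-box factor, measured 32.3, 29 and 20.4 in P19, 159.7, 142 and 136 in P19 NTES7 and 74.8, 74 and 88.9 in R1. Lhx1, a LIM homeobox gene, rose 3.99-fold from 8.75 ± 0.317 to 35.1 ± 5.13, and Mixl1, a homeobox gene of the streak, 2.47-fold from 12.9 ± 1.29 to 32 ± 5.88 (adjusted p = 4.17e-07 and 1.66e-05). Wnt3, the ligand that starts the streak, rose 2.2-fold (adjusted p = 1.56e-05). In Lhx1, Mixl1 and Wnt3, P19 lay below the array median. Pdgfra, the receptor found on mesoderm, primitive endoderm and fibroblasts, rose 5.04-fold (adjusted p = 9.42e-09), and since fibroblast markers rose as well, their part in that result was not tested.

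Of 38 WNT genes, 2 were called higher and 3 lower, together 13.2% against 2.84% of all genes, with a median difference of 0.07. Axin2, a feedback inhibitor that reports beta-catenin activity, measured 14.1, 15.5 and 18 in P19, 63.2, 56.1 and 66.8 in P19 NTES7 and 40.3, 46.4 and 35 in R1, a 3.93-fold rise (adjusted p = 1.87e-07). The secreted antagonists Sfrp1 and Sfrp2 fell 3.37-fold and 2.58-fold (adjusted p = 1.50e-06 and 5.05e-05). The receptor gene Fzd3 fell 2.06-fold, but was under the limit at -0.92 without the third P19 array and at -0.98 without the third P19 NTES7 array. It lies on chromosome 14, in a window of 25 neighbouring genes whose median difference was -0.40. Of the Notch list, 2 of 21 rose (median of the list 0.10): Dll1, a ligand, 3.27-fold and Hes1, a target repressor, 3.44-fold (adjusted p = 2.71e-04 and 1.29e-05). Of the BMP, TGF-beta and activin list, 2 of 29 were called higher and 1 lower, with a median of 0.12. The shares called were 9.52% for the Notch list and 10.3% for this list, against 2.84% of all genes. Fst, whose product binds activin, rose 2.92-fold and Tgfb3 fell 2.48-fold (adjusted p = 1.86e-07 and 5.23e-06). Bmp4 stayed near the floor, at 14.2, 14.6 and 13.8 in P19 and 14.7, 11.8 and 11.9 in P19 NTES7, against 117, 119 and 104 in R1 (adjusted p = 3.31e-10 for P19 NTES7 against R1).

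LIF acts through the receptor chains Lifr and Il6st, the JAK kinases and Stat3. Of 17 measured genes of this route, 2 were called higher and 1 lower, together 17.6% against 2.84% of all genes, with a median of 0.18. Cntfr, the receptor subunit for ciliary neurotrophic factor, measured 176, 165 and 161 in P19, 40.7, 28.3 and 29.5 in P19 NTES7 and 18.2, 19.5 and 15.2 in R1, a 5.16-fold fall (adjusted p = 9.50e-08). Jak2 rose 2.55-fold and Pim1, a kinase gene switched on by Stat3, 2.52-fold (adjusted p = 1.01e-04 and 4.79e-05). Stat3 itself measured 287, 283 and 297 in P19 and 388, 388 and 372 in P19 NTES7, a difference of 0.41 ± 0.09 that was under the limit of the call.

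More genes of MAP kinase signaling fell than rose. Of 25 measured kinase and phosphatase genes, 8 were called lower and 2 higher, together 40% against 2.84% of all genes. The median difference of the list was -0.36. Besides Mapkapk2, the fallen genes included Map3k5, the stress kinase ASK1, 4.16-fold lower, Taok3, an upstream kinase, 2.8-fold lower, and Mapk11, the p38 beta isoform, 2.3-fold lower (adjusted p = 2.26e-07, 1.03e-05 and 2.94e-05). Mapk8ip2, a scaffold for JNK, fell 2.81-fold (adjusted p = 3.91e-06), and Dusp9, a phosphatase that acts on ERK, fell 2.51-fold (adjusted p = 3.65e-05). The central stress kinases were not called, with differences of -0.69 for Mapk8, -0.16 for Mapk9 and -0.22 for Mapk14, and 0.73 for Mapk13. Mapk8 lies on chromosome 14, in a window of 25 neighbouring genes with a median of -0.31. The 2 genes that rose are phosphatases, Dusp1 and Dusp4. Dusp1 measured 88.9, 88.2 and 92.3 in P19, 1106, 912 and 992 in P19 NTES7 and 401, 399 and 631 in R1, and P19 NTES7 was above both other lines (adjusted p = 5.64e-09 and 1.20e-04).

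Of 23 measured genes that respond to ERK, 10 were called higher and 1, Etv4, lower, together 47.8% against 2.84% of all genes. The median difference of the list was 0.64. Fos, which encodes a subunit of the AP-1 factor, measured 9.22, 8.24 and 9.66 in P19, 114, 80.3 and 90.9 in P19 NTES7 and 49.4, 50.6 and 94.3 in R1. All P19 arrays were at the floor and the third R1 array lay within the P19 NTES7 range. The related Fosb measured 11.8, 11.5 and 8.76 in P19, 139, 128 and 144 in P19 NTES7 and 73.5, 72.6 and 111 in R1. Jun, the partner subunit, measured 56.6, 60.2 and 91.3 in P19, 401, 295 and 339.9 in P19 NTES7 and 80.4, 85.7 and 148 in R1. P19 NTES7 was 10.4-fold, 12.9-fold and 5.06-fold above P19 in these 3 genes (adjusted p = 1.39e-07, 4.83e-09 and 8.18e-06). Egr1, a zinc finger factor, rose 3.6-fold, Nr4a1, an orphan nuclear receptor, 2.5-fold, and Atf3, a stress-induced factor, 2.71-fold (adjusted p = 4.27e-07, 1.19e-05 and 1.22e-05). The matricellular genes Ccn1 and Ccn2 rose 4.92-fold and 3.19-fold (adjusted p = 1.55e-06 and 1.04e-06). The members that encode feedback inhibitors of the pathway were not called, with differences of -0.40 for Spry1, 0.07 for Spry2, -0.90 for Spry4, -0.30 for Spred1, -0.42 for Spred2 and 0.23 for Dusp6. The ETS factor gene Etv5 was at -0.30. Myc, which is also on this list, measured 76.6, 73.1 and 34.1 in P19 and 80.7, 100.1 and 80.1 in P19 NTES7 (adjusted p = 0.122). The summed fibroblast markers moved in the same direction, to at least 3207 from at most 1093, and their part in the early response result was not tested.

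Fos and Dusp1, both with large rises, have well-known early response promoters, so their start regions are shown. Each window holds 300 bases around the start of transcription in RefSeq's GRCm38.p6 annotation, and capitals mark matches to TGACGT, the core of the cAMP response element, on either strand. Fos is read from the plus strand of chr12:85473640-85473939 and Dusp1 from the minus strand of chr17:26508423-26508722.
Fos: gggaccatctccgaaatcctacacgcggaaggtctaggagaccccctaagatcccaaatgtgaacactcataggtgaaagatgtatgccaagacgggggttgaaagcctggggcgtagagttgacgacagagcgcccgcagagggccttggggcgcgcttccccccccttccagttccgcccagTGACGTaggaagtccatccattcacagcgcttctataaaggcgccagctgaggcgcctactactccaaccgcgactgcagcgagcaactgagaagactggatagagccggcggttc
Dusp1: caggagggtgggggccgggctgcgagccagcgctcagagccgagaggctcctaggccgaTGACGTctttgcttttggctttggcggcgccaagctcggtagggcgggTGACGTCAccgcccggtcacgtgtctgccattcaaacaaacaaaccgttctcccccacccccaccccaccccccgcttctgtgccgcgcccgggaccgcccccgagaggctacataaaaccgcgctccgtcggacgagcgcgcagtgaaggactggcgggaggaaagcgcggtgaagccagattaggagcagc
Fos held 1 match and Dusp1 held 3, where the second and the third overlap because TGACGTCA reads the same on both strands. Of all 32851 promoter windows in the table, 7.51% held at least 1 match and 0.201% at least 3. A match is a description of these letters and not evidence that a factor binds there.

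The metallothionein genes Mt1 and Mt2, neighbours on chromosome 8 whose products bind zinc and copper, rose to a similar extent. Mt1 measured 59.7, 68.8 and 90.4 in P19, 613, 474 and 485 in P19 NTES7 and 377, 369 and 581 in R1. Mt2 measured 61.6, 55.8 and 49.4 in P19, 425, 395 and 363 in P19 NTES7 and 292, 315 and 359 in R1. P19 stood below both other lines in each gene, with P19 NTES7 7.24-fold and 7.11-fold above it (adjusted p = 2.06e-07 and 2.35e-09). Neither was called between P19 NTES7 and R1 (adjusted p = 0.352 and 0.0829). The promoters of the pair are shown because metal response elements in them are the textbook route of their control. Capitals mark TGCGCNC or TGCACNC, the cores of that element, on either strand, in RefSeq's GRCm38.p6 windows on the plus strand of chr8:94178839-94179138 for Mt1 and chr8:94172368-94172667 for Mt2.
Mt1: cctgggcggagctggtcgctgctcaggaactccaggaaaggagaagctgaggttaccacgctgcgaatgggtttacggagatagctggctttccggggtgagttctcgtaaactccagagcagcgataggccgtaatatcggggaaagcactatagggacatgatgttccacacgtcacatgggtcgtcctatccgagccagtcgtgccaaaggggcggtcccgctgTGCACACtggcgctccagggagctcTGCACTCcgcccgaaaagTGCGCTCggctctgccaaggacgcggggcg
Mt2: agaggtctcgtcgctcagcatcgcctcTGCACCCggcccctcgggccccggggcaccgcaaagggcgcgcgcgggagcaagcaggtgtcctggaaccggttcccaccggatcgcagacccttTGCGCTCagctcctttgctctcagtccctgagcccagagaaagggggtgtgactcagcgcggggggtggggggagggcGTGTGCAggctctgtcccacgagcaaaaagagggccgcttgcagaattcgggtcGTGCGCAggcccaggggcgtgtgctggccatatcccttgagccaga
Mt1 held 3 matches and Mt2 held 4, none of them overlapping. Of the 32851 windows, 25.7% held at least 1 match, 1.97% at least 3 and 0.517% at least 4. Metallothioneins are also expressed in fibroblasts, whose markers rose on the same arrays, and the part of these cells in the rise was not tested.

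Imprinted genes moved in both directions and on both parental sides. Of 25 measured maternally expressed genes, 4 were called higher and 2 lower, and of 26 paternally expressed genes, 4 higher and 3 lower, with medians of 0.07 and 0.10. The shares called were 24% and 26.9%, against 2.84% of all genes. Besides H19, the maternally expressed Igf2r, a receptor that clears IGF2, measured 61.3, 68.3 and 78.4 in P19, 225, 193 and 215 in P19 NTES7 and 199.6, 205 and 223 in R1. Cdkn1c, a cell cycle inhibitor, rose 2.24-fold (adjusted p = 1.94e-05), and the arrays of P19 NTES7 and R1 overlapped in both Igf2r and Cdkn1c (adjusted p = 0.964 and 0.859). Calcr, the calcitonin receptor, and Phlda2, a growth repressor of the placenta, fell 4.22-fold and 2.73-fold (adjusted p = 4.15e-07 and 9.53e-05).

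Igf2, the growth factor gene that shares its control region with H19 and is expressed from the opposite allele, rose as well. It measured 22.8, 23.6 and 28.3 in P19, 67.7, 60.05 and 66.9 in P19 NTES7 and 83.9, 94.7 and 74.2 in R1 (2.62-fold, adjusted p = 2.73e-06). Summed fibroblast markers were also higher in P19 NTES7 and R1 than in P19. Their part in the rises of H19, Igf2r, Cdkn1c and Igf2 was not tested. Sfmbt2, a Polycomb group gene, rose 12.8-fold, Impact, a translational regulator, 4.09-fold, and Nnat, a proteolipid gene, 3.38-fold (adjusted p = 7.85e-11, 9.96e-08 and 3.68e-06). Plagl1, a zinc finger factor that regulates other imprinted genes, measured 278, 315 and 377 in P19, 56.5, 72.1 and 55.9 in P19 NTES7 and 36.7, 34.5 and 38.3 in R1, a 5.26-fold fall (adjusted p = 4.31e-08). Peg10, a gene of retrotransposon origin, fell 2.24-fold (adjusted p = 1.26e-05). Peg3 measured 282, 278 and 308 in P19, 425, 434 and 410.5 in P19 NTES7 and 125, 128 and 156 in R1, and its 1.46-fold difference from P19 was under the limit of the call.

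Among genes for DNA methylation, Dnmt3a and Dnmt3l, subunits of the de novo methyltransferase, moved apart. Dnmt3b, on the same list, was not called (log2 difference -0.69). Dnmt3a, a catalytic subunit, measured 364, 352 and 313 in P19, 83.4, 70.1 and 76.2 in P19 NTES7 and 79.3, 75.5 and 109.9 in R1, where the P19 NTES7 arrays overlapped those of R1 (4.48-fold lower than P19, adjusted p = 1.60e-07). Dnmt3l, the cofactor without catalytic activity, measured 24.7, 26.1 and 22 in P19, 117, 113 and 124 in P19 NTES7 and 302, 307 and 233 in R1 and rose 4.88-fold (adjusted p = 3.06e-08). Mbd1, which binds methylated CpG, rose 2.47-fold (adjusted p = 7.47e-07). These were the 3 calls among 17 measured genes of the list, 17.6% against 2.84% of all genes. Of 30 Polycomb group genes 2 (6.67%) were called, Sfmbt2 and Scml2, both higher, although Scml2 was under the limit at 0.94 without the third P19 NTES7 array. Of 24 histone demethylases and methyltransferases 0 were called by limma and 0 by the analysis of variance, with 9 at an unadjusted p under 0.05.

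Genes of the germ line and of meiosis, many of which are kept silent in somatic cells by promoter methylation, rose in part. Of 34 measured, 9 were called higher and 0 lower, or 26.5% against 2.84% of all genes, with a median difference of 0.67. Sohlh2, a factor of early germ cell differentiation, measured 9.79, 11 and 11.2 in P19, 52.4, 52.8 and 50.6 in P19 NTES7 and 32.7, 31.6 and 26.8 in R1. Tex19.1, a gene that restrains retrotransposons, measured 12.3, 9.99 and 14.3 in P19, 44.6, 56 and 84.9 in P19 NTES7 and 26.1, 31.2 and 29.9 in R1. The P19 arrays were below the array median in both genes, and P19 NTES7 was 4.87-fold and 4.93-fold higher (adjusted p = 7.55e-09 and 2.73e-06).

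Some members of the list that act in the piRNA pathway, which silences transposons in germ cells, rose. Tdrd5, a Tudor domain gene, rose 3.96-fold, Piwil4, a PIWI protein gene, 2.67-fold, Ddx4, the germ cell helicase, 2.83-fold, and Mael, the maelstrom gene, 2.47-fold (adjusted p = 1.87e-07, 2.71e-07, 2.07e-05 and 1.01e-06). Other members of that pathway were not called, with differences from 0.15 for Piwil2 and 0.16 for Tdrd6 to 0.75 for Tdrd7 and 0.75 for Asz1. Tdrd5 and Piwil4 were also above R1, by log2 differences of 1.84 and 1.37 (adjusted p = 2.04e-07 and 1.99e-07), and Piwil4 was below the array median in P19 and R1. Meioc, which keeps cells in meiotic prophase, was outside the list and measured 15.5, 17.8 and 17.5 in P19, 183, 200.2 and 193 in P19 NTES7 and 19, 21.1 and 35.9 in R1. It stood above both other lines (adjusted p = 3.06e-08 and 5.98e-08). The count of the germline list depends on the floor: with every value below its array's median raised to that median, 3 members were called.

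X-linked genes of reproduction rose in 3 of 23 cases and fell in 1, Nr0b1, together 17.4% against 2.84% of all genes. The median of the list was 0.22. Usp26 measured 7.62, 11.2 and 8.99 in P19, 293, 318 and 299 in P19 NTES7 and 61.3, 67.7 and 51.3 in R1 (adjusted p = 7.85e-11 and 4.69e-08 against P19 and R1). Nxf3, an RNA export factor gene, rose 3.58-fold and Tex13b, a testis gene, 2.61-fold (adjusted p = 3.98e-07 and 1.60e-06), and both were also above R1 (adjusted p = 4.44e-07 and 4.87e-06). Of 8 measured Y-linked genes, 3 fell to the floor, and the share called was 37.5%, against 2.84% of all genes. Eif2s3y, a translation factor gene, measured 174, 149.9 and 145 in P19, 9.07, 7.8 and 8.92 in P19 NTES7 and 169.6, 177 and 248 in R1. Uty, a demethylase-related gene, measured 80.2, 63.7 and 65.3 in P19, 8.08, 7.27 and 9.09 in P19 NTES7 and 133, 139 and 119.8 in R1. Kdm5d, a histone demethylase gene, measured 74.8, 79.1 and 74 in P19, 8.69, 8.83 and 8.56 in P19 NTES7 and 8.08, 7.95 and 11 in R1, so that only P19 showed it. The adjusted p-values against P19 were 4.13e-10, 1.44e-09 and 1.43e-09, and the other 5 were not called. Of 18 measured genes of the 2-cell stage and oocyte, 0 were called by limma and 0 by the methods' analysis of variance, and 7 had an unadjusted limma p under 0.05. Ooep, an oocyte protein gene at 16, 13.3 and 17.5 in P19 and 36.9, 25.3 and 28.2 in P19 NTES7, had an adjusted p of 4.22e-04 and a 1.92-fold difference. Its call appeared without the third P19 array (log2 difference 1.03) and without the second P19 NTES7 array (1.06).

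**Figure D3:**
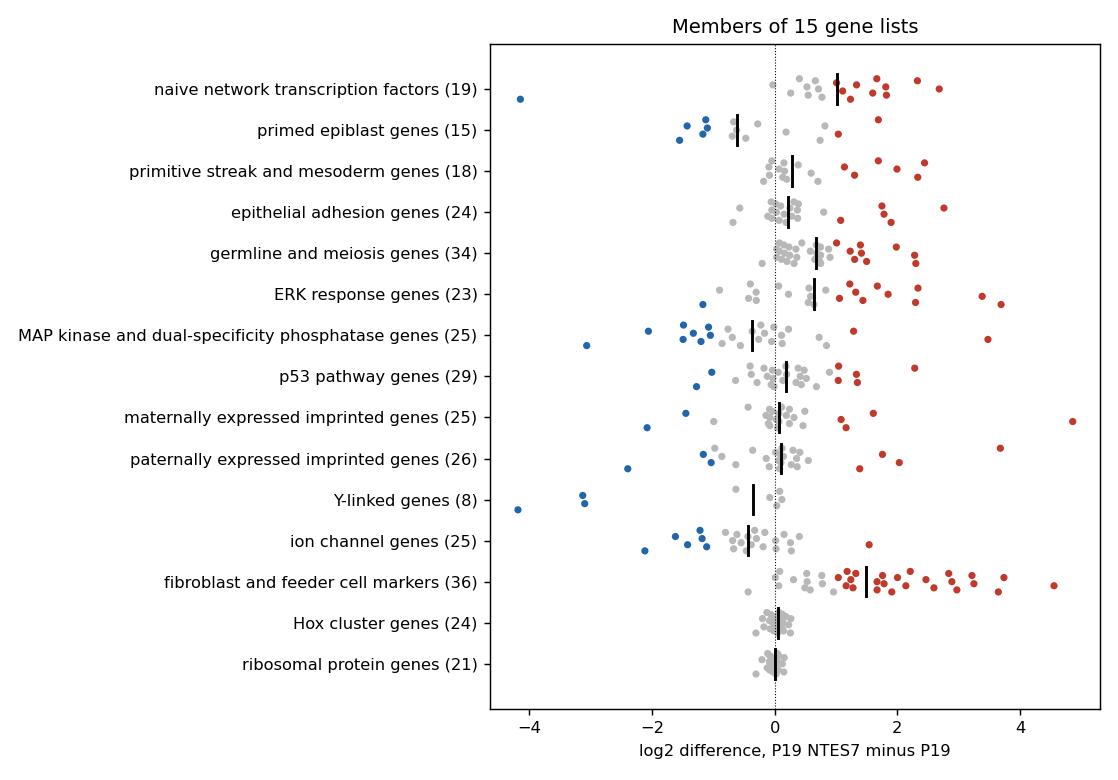
Log2 differences between P19 NTES7 and P19 of the measured members of 15 gene lists, with the number of members in parentheses, red for called higher, blue for called lower and gray for not called. The vertical bar is the median of each list, which is 1.01 for the naive network, 1.5 for fibroblast markers and 0.01 for ribosomal protein genes.

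Fibroblast and matrix genes formed the group with the most calls. Of 36 measured markers, 24 were called higher and 0 lower, or 66.7% against 2.84% of all genes, with a median difference of 1.5. Tnc, the matrix protein tenascin C, measured 8.7, 9.77 and 7.74 in P19, 219.8, 202 and 192 in P19 NTES7 and 421, 414 and 489.7 in R1. Col1a2, a chain of type I collagen, measured 22, 20.9 and 25.5 in P19, 179.9, 137 and 174 in P19 NTES7 and 222, 226 and 247 in R1. P19 NTES7 stood between the other lines in both, 23.5-fold and 7.15-fold above P19 (adjusted p = 7.85e-11 and 4.13e-09). The proteoglycan gene Bgn rose 13.3-fold and Dcn 9.51-fold, and the protease gene Mmp3 rose 7.42-fold (adjusted p = 2.39e-10, 2.01e-08 and 8.17e-10). Ptgs2, which makes prostaglandins, rose 9.3-fold (adjusted p = 1.11e-08). Against R1, 0 of the 36 markers were called higher in P19 NTES7 and 9 lower, where 1.67% of all genes were higher and 2.85% lower. Of 31 matrix receptors, laminins and related genes, 0 were called higher and 2 (6.45%) lower, with a median of 0.07. All P19 NTES7 arrays lay above all P19 arrays in 10 of them and below in 8, against 3446 and 3782 of all 19941 genes. Itga6, the integrin alpha 6 chain, measured 567, 568 and 635 in P19, 291, 271 and 246 in P19 NTES7 and 174, 181 and 212 in R1 (adjusted p = 8.18e-06 against P19). Both lines with raised fibroblast markers were grown on feeder fibroblasts and P19 was not, so the line and the feeders cannot be told apart in these genes.

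Epithelial genes rose in part. Of 24 measured, 5 were called higher and 0 lower, or 20.8% against 2.84% of all genes, with a median of 0.22. All P19 NTES7 arrays lay above all P19 arrays in 8 members and below them in 3. Epcam was among the lower ones, at 266, 291 and 243 in P19 and 211, 168 and 163 in P19 NTES7. Its 1.48-fold difference was under the limit of the call (adjusted p = 0.00724). All 3 keratin genes of the list rose: Krt19 rose 6.78-fold, Krt8 3.73-fold and Krt18 3.44-fold (adjusted p = 5.25e-09, 5.53e-06 and 1.30e-07). Krt19 measured 10.2, 10.5 and 10.8 in P19, 79.5, 61.2 and 74 in P19 NTES7 and 27.8, 32.9 and 25.4 in R1, with P19 NTES7 highest. Dsp, the desmosomal protein desmoplakin, rose 3.36-fold (adjusted p = 1.13e-05). Cdh1, the E-cadherin gene, measured 102, 99.1 and 54.4 in P19, 189, 155 and 177 in P19 NTES7 and 456, 445 and 517 in R1, and without the third P19 array its log2 difference was 0.78, under the limit of the call. Krt8 and Krt18 are also on the trophoblast list, where 5 of 18 rose and 0 fell (median 0.24). That share was 27.8%, against 2.84% of all genes. A further keratin gene on that list, Krt7, was not called (0.13). Tfap2c, a factor of trophoblast and germ cells, rose 2.96-fold (adjusted p = 2.04e-07). Of 19 endoderm genes, 2 were called higher, Pdgfra and Gata6, or 10.5% against 2.84% of all genes, with a median of 0.15. Gata6, a factor of primitive endoderm, lost its call narrowly without the first P19 array (log2 difference 0.995) and without the first P19 NTES7 array (0.996).

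Of 21 measured neural genes, 3 fell and 0 rose, with a median of -0.08. The share called lower was 14.3%, against 1.38% of all genes. All P19 NTES7 arrays lay below all P19 arrays in 10 members and above them in 3, against 3782 and 3446 of all 19941 genes. Stmn2, a microtubule regulator of neurons, measured 256, 261 and 320.3 in P19, 101, 102 and 86.3 in P19 NTES7 and 292, 309 and 316 in R1. Zic1, a zinc finger factor of neural precursors, fell 4.21-fold and Gap43, a growth cone protein gene, 2.19-fold (adjusted p = 3.25e-08 and 3.24e-05). More ion channel genes fell than rose. Of 25 measured, 6 were called lower and 1 higher, together 28% against 2.84% of all genes, with a median difference of -0.43. Gabra3, a GABA receptor subunit, measured 52.5, 51.3 and 69.2 in P19, 11.5, 14.1 and 14.1 in P19 NTES7 and 10.5, 10.9 and 11.9 in R1. Cacng7, a regulator of AMPA receptors and calcium channels, fell 3.07-fold and the sodium channel gene Scn3a 2.67-fold (adjusted p = 9.04e-07 and 1.57e-06). Cacna1h, a T-type calcium channel, went the other way, at 24.6, 25.6 and 31.1 in P19, 98.9, 63.6 and 77 in P19 NTES7 and 11.9, 10.6 and 12.5 in R1 (adjusted p = 8.89e-06 against P19).

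Of 25 lipid signaling enzymes, 1 was called higher and 2 lower, together 12.0% against 2.84% of all genes, with a median of -0.01. Plce1, a phospholipase C that responds to Ras, measured 371, 411 and 502 in P19, 102, 87.3 and 68.3 in P19 NTES7 and 15.7, 15.4 and 15.5 in R1. Prkcb, the protein kinase C beta gene, measured 227, 225 and 226 in P19, 56.8, 54.1 and 55.3 in P19 NTES7 and 14.9, 17.6 and 27 in R1. Both fell from P19 (5.01-fold and 4.08-fold, adjusted p = 1.40e-07 and 1.79e-06) and stayed above R1 (adjusted p = 3.96e-08 and 1.32e-05). Pla2g1b, a secreted phospholipase A2, rose 2.66-fold and stayed far below R1, with 88.6, 83.8 and 67.5 on the P19 NTES7 arrays and 708, 693 and 725 on those of R1 (adjusted p = 2.22e-06 and 6.04e-10).

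Trp53, which encodes the tumor suppressor p53, was not called between the lines of P19 origin. Its probe set measured 11.9, 12.2 and 10.1 in P19, 11.1, 10.1 and 12.4 in P19 NTES7 and 527, 529 and 540.1 in R1, so both of these lines were near the floor (adjusted p = 0.898 against P19 and 4.62e-12 against R1). Of 29 measured genes of the p53 pathway, 5 rose in P19 NTES7 and 2 fell, together 24.1% against 2.84% of all genes. The median difference of the list was 0.18. Cdkn1a, the cell cycle inhibitor p21, measured 8.78, 9.46 and 9.82 in P19, 47.7, 42.5 and 46.6 in P19 NTES7 and 136, 135 and 177 in R1. It rose 4.87-fold (adjusted p = 2.55e-08) without reaching R1 (adjusted p = 1.76e-07). Pmaip1, which encodes the death protein Noxa, rose 2.55-fold and Btg2, an antiproliferative gene, 2.52-fold (adjusted p = 7.15e-07 and 0.00118). Gadd45a, a damage response gene, measured 34.2, 29.8 and 30.6 in P19 and 51.6, 50.8 and 49.3 in P19 NTES7, and its 1.6-fold difference was under the limit of the call. Against R1, 16 of the 29 genes of the pathway were called lower in P19 NTES7 and 2 higher, where 2.85% of all genes were lower and 1.67% higher. The count against P19 is sensitive to settings, being 3 with values floored at the array medians and 4 without the first P19 array, where Casp8, Tnfrsf10b and Trp53inp1 lost their calls (log2 differences of -0.94, 0.99 and 0.93). The summed fibroblast markers ran in the same order over the lines, at most 1093 in P19, 3207 to 3940.4 in P19 NTES7 and at least 5199 in R1, and their part in these results was not tested. Among cyclins and their inhibitors the 2 calls of 25 were Cdkn1a and Cdkn1c, both higher, or 8% against 2.84% of all genes.

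A further gene with like levels in both lines of P19 origin was Bco2, which encodes a carotenoid-cleaving enzyme. It measured 314, 332 and 302 in P19, 252, 287 and 231 in P19 NTES7 and 8.38, 7.59 and 7.49 in R1. The 2 lines of P19 origin differed by -0.30 ± 0.10 (adjusted p = 0.0605), while P19 NTES7 lay 5.03 ± 0.10 log2 units above R1 (adjusted p = 6.33e-12).

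Some interferon-related and blood cell markers rose. B2m, the light chain of class I molecules, rose 2.32-fold and Ifitm3, a membrane protein gene of germ cells and of the interferon response, 4.68-fold (adjusted p = 3.88e-05 and 1.21e-07). With Ifitm1, these were the 3 calls of 20, or 15% against 2.84% of all genes. The call of Ifitm1 was lost without the first P19 NTES7 array, at 0.99. Of 14 macrophage and blood cell markers 3 (21.4%) were called higher and 0 lower. Among them was Cd68, a lysosomal gene of macrophages and fibroblasts, at 16.5, 14 and 15 in P19, 55, 68 and 61.2 in P19 NTES7 and 61.8, 63.7 and 104 in R1. The call of Lyz2, the lysozyme gene, was lost when any 1 of the 6 arrays was left out (log2 differences from 1.24 to 1.53). The defining genes Ptprc and Csf1r were below the array median in all 3 lines.

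Ribosomal protein and Hox genes gave no call, and lists of metabolism and stress gave 1 or 2 each. Of 21 ribosomal protein genes and 24 Hox genes, 0 were called by limma or by the analysis of variance, with medians of 0.01 and 0.05 and 1 and 3 genes at an unadjusted limma p under 0.05. Of 22 genes of glycolysis (median -0.07) 1 was called lower, Pfkm, the muscle type phosphofructokinase, 2.53-fold (adjusted p = 3.98e-05). Of 20 genes of amino acid and one-carbon metabolism 1 was called lower, the cystine transporter gene Slc7a11, 2.26-fold (adjusted p = 2.12e-04), with a median of -0.53 over the list. In 15 of these 20 genes all P19 NTES7 arrays lay below all P19 arrays, against 3782 of all 19941 genes, and in 1 they lay above. Without the third P19 array the glycolysis count was 2, and without the first array of either line the amino acid count was 2. Of 17 chaperone genes 2 were called, Dnajb9, an endoplasmic reticulum chaperone, 3.84-fold higher and Hspb8, a small heat shock protein gene, 2.95-fold higher (adjusted p = 4.31e-08 and 4.84e-05). Of 22 detoxification genes 2 were called, Gstm5, a glutathione transferase, 4.12-fold higher and Cyp2b23, a cytochrome P450, 3.41-fold lower (adjusted p = 1.92e-07 and 1.45e-06). Of 20 retinoid genes 2 rose, the retinoic acid binding protein gene Crabp1 2.52-fold and the retinal reductase gene Dhrs3 2.15-fold (adjusted p = 3.42e-06 and 1.61e-04). Of 17 surface markers of pluripotent cells 1 was called, Cd44, which is also a fibroblast marker. The shares called were 4.55% for glycolysis, 5% for amino acid and one-carbon metabolism and 11.8% for chaperones. They were 9.09% for detoxification, 10% for retinoid genes and 5.88% for surface markers, against 2.84% of all genes.

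Chromosome 14 stood apart from all other autosomes. Genes were placed by the gene order of RefSeq's GRCm38.p6 annotation, and those above the median of all values in either line were used, 371 on chromosome 14. The median difference of its genes, relative to all genes placed, was -0.27, -0.25 and -0.25 on the 3 P19 NTES7 arrays. For every other autosome and the X the mean of these 3 medians lay between -0.04 and 0.12, with chromosome 4 at the upper end (0.12 on each array). On chromosome 14, 21 genes were called lower and 6 higher, so most of its genes moved by less than the limit of the call. With all measured genes in place of those above the median, the mean was -0.08 for chromosome 14 and 0.05 for chromosome 4.

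**Figure D4:**
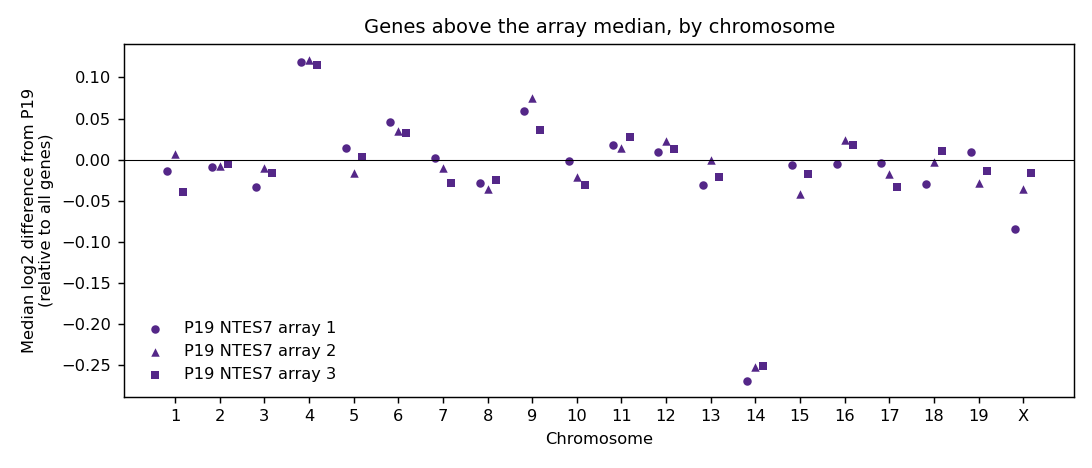
Median log2 difference from P19 of the genes of each chromosome on each of the 3 P19 NTES7 arrays, relative to all genes, for genes above the median of all values. Chromosome 14 lies at -0.27 to -0.25 on all 3 arrays and chromosome 4 at 0.12, and Y is left out because only 5 genes remained.

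The lower level was not spread over the whole of chromosome 14. In order along the chromosome, the first 297 genes, from Abhd6 to Fgf17, had medians of -0.34, -0.32 and -0.33 on the 3 P19 NTES7 arrays, and the last 74 genes, from Xpo7 to Tmtc4, had 0.03, 0.09 and 0.10. In the first stretch 20 genes were called lower and 4 higher, and in 64.6% of its genes all P19 NTES7 arrays lay below all P19 arrays, against 31.0% of all genes placed. In the second stretch that share was 20.3%. R1 differed from P19 on the same chromosome in the other stretch: its median difference from P19 was 0.03 over the first 297 genes and 0.87 over the last 74. In windows of 25 neighbouring genes, 210 of 10269 windows of the genome had a median under -0.3 and 209 of these were on chromosome 14. Of 29 windows over 0.3, 20 were on chromosome 4, centred on genes from Efhd2 to Fv1. The boundary on chromosome 14 was placed after the values were seen, by dividing the genes into 10 equal runs, so the 2 stretches are a description.

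**Figure D5:**
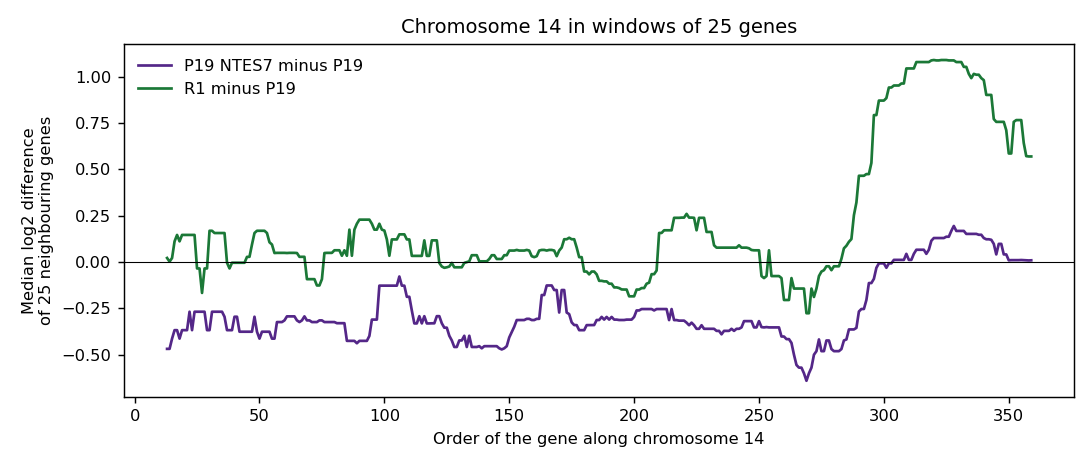
Median log2 difference of windows of 25 neighbouring genes along chromosome 14, in gene order, for P19 NTES7 minus P19 and for R1 minus P19, relative to all genes. P19 NTES7 runs below 0 over most of the first 297 genes, whose median is -0.33, and near 0.07 over the last 74, where the median of R1 is 0.87.

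On chromosome 10 a cluster of falls lay within a stretch whose median was near 0. Between Plagl1 and Enpp3, 43 genes above the array median had a median difference of -0.06, and 8 of them were called lower and 1, Ccn2, higher. The 8 were Plagl1, Ifngr1, Il20ra, Slc35d3, Pex7, Map3k5, Moxd1 and Enpp3, of which 5 are among the 30 largest falls. Slc35d3, a nucleotide sugar transporter gene, measured 89.2, 84.3 and 70.8 in P19 and 12.4, 12.6 and 13.4 in P19 NTES7, and its neighbour Il20ra, an interleukin receptor gene, 41, 42.6 and 31.6 in P19 and 8.18, 8.69 and 7.87 in P19 NTES7 (adjusted p = 4.82e-09 and 1.05e-07). This stretch was chosen after its values were seen.

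Small RNA genes are measured on this array through their precursor regions, so a level stands for the primary transcript or the precursor and not for the mature microRNA. Of 296 microRNA genes measured, 1 was called higher and 5 lower. The share called, 2.03%, was below the 2.84% of all genes, so the called ones are described singly and not as a group, and those described here were chosen after their values were seen. The mature sequences are shown with the seed, bases 2 to 8, in capitals, because members of a cluster can share a seed and so a set of targets. The first group comes from the X-linked cluster of Mir106a.
miR-106a-5p: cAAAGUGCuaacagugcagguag
miR-20b-5p: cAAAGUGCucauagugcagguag
miR-19b-3p: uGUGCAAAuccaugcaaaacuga
miR-92a-3p: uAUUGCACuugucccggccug
miR-363-3p: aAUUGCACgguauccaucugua
In RefSeq, miR-106a-5p and miR-20b-5p share the seed AAAGUGC, and miR-92a-3p and miR-363-3p share AUUGCAC. Mir106a measured 36.5, 29.96 and 25.4 in P19, 9.78, 10.1 and 10.5 in P19 NTES7 and 13.6, 14.1 and 16.5 in R1. Mir363, at the other end of the cluster, measured 49, 45.7 and 27.1 in P19, 15.1, 16.5 and 19.3 in P19 NTES7 and 28.6, 24.9 and 21.8 in R1. Both fell from P19 (2.99-fold and 2.33-fold, adjusted p = 1.83e-06 and 5.04e-04). The members between them did not pass the call, with -0.81 ± 0.14 for Mir20b, -0.64 ± 0.19 for Mir19b-2 and -0.17 ± 0.13 for Mir92-2. Mir106a and Mir363 lost their calls with values floored at the array medians, and Mir363 also under the methods' unadjusted analysis of variance.

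The one microRNA gene called higher was Mir23a, which lies next to Mir27a and Mir24-2 on chromosome 8.
miR-23a-3p: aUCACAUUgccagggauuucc
miR-27a-3p: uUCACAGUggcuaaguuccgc
Mir23a measured 14.2, 12.8 and 16 in P19, 29.2, 33.8 and 44.5 in P19 NTES7 and 23.3, 24.8 and 27.8 in R1, a 2.47-fold rise (adjusted p = 2.86e-05). Mir27a measured 13.8, 14.7 and 12.8 in P19 and 28.7, 26.2 and 25.5 in P19 NTES7, a 1.95-fold difference under the limit of the call, which it passed without the second P19 array (log2 difference 1.01). The cluster is expressed in fibroblasts too, and the part of the raised fibroblast markers was not tested.

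The Mir302 cluster, which marks pluripotent cells and is most active in the primed state, was not called between P19 and P19 NTES7.
miR-302b-3p: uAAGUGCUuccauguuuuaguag
miR-302d-3p: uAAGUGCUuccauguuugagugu
Mir302b measured 46.1, 52.3 and 27.1 in P19, 54.6, 41 and 34.2 in P19 NTES7 and 16.3, 14.6 and 18 in R1. Mir302d measured 98.5, 124 and 51.3 in P19, 113, 114 and 126 in P19 NTES7 and 38.1, 42.3 and 31.6 in R1. The arrays of P19 and P19 NTES7 overlapped in both, with differences of 0.08 ± 0.22 and 0.45 ± 0.24 (adjusted p = 0.861 and 0.232), and P19 NTES7 was above R1 (adjusted p = 3.06e-04 and 1.52e-04). Mir302a, Mir302c and Mir367 of the same cluster also lay above R1, by log2 differences of 1.44, 1.98 and 1.33 (adjusted p = 3.70e-04, 1.57e-05 and 3.59e-04). The seed that miR-302b-3p and miR-302d-3p share, AAGUGCU, is not identical to that of any member of the Mir106a cluster shown. It has the run AAGUGC in common with AAAGUGC, the seed of miR-106a-5p and miR-20b-5p. Whether their targets overlap was not tested.

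Promoter composition of the changed genes was compared as a description. RefSeq gave start regions for 15565 of the 19941 genes. The median number of CpG dinucleotides in 300 bases was 15 for the 201 genes called higher that had a start region, 19 for the 200 called lower, 15 for all 15565 genes with a start region and 21.5 for those above the array median. The 8 called germline genes with a start region had a median of 19.5, and the 16 called fibroblast markers with one had 6. The quartiles over all genes with a start region were 5 and 25.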

How the data were processed

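RNA of 3 lines was measured on Affymetrix GeneChip Gene 1.0 ST arrays, 3 per line. The deposited values are linear intensities that the authors normalized by Robust Multichip Average (RMA), and they were used without further scaling. The hybridisation batches were not stated. The platform annotation gave 21789 of 28853 probe sets 1 gene symbol, 1621 several and 5443 none. Symbols were updated through Entrez identifiers to RefSeq's GRCm38.p6 table (21702 matched), and 4 probe sets of H19, Trp53 and Cdkn1a were named through a supplementary list of the study. Of several probe sets for a gene, the brightest over 9 arrays was taken.

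On log2 values, limma 3.58.1 in R 4.3.3 fitted a mean for each line over 9 arrays, with moderated variances. A call needed a Benjamini-Hochberg adjusted p under 0.01 over all probe sets and a fold over 2. This step was tested on simulated data. The number of arrays limits precision, and the median SD of log2 values within a line ran from 0.106 to 0.132. Arrays with the same replicate number did not deviate together (correlations of -0.02, -0.06 and 0.04), so no pairing was used.

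The comparison, the 42 gene lists (929 of 1034 entries measured) and the tests were chosen with earlier results of these data known. Genes named are the 30 largest called rises and falls, up to 8 called members of each list, the brightest members of lists with under 3 calls, and the genes of the study's own list. Some uncalled members of lists with more calls, such as Spry1, Mapk8, Piwil2 and Krt7, are outside this rule. They were chosen after their values were seen, to show how other members of their lists went. Any other gene is said to be chosen after its values were seen. Alternatives were 6 arrays alone, quantile normalization, a filter on dim probe sets, a floor at the array medians, the methods' one-way analysis of variance, leaving out each array, a replicate block, and the mean of a gene's probe sets.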

Additional observations from a re-analysis of the deposited data

How the results depend on the processing

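The 566 called genes became 567 with the 6 arrays alone, 545 with quantile normalization, 565 with a filter on dim probe sets, 426 with values floored at the array medians, 563 with the mean of a gene's probe sets, and 548 to 593 without each array in turn. The methods' one-way analysis of variance gave 528 at its unadjusted limit and 449 after Benjamini-Hochberg adjustment. With the replicate number as a block the count was 564, and of 173 named genes that were called, 1, Foxd3, lost its call. The samples share only a number, so this block is no pairing. Of the same 173 genes, 3 to 10 lost their call without 1 array, 5 with quantile normalization, 8 under the unadjusted analysis of variance (Btg2, Dll1, Foxd3, Grem1, Lyz2, Mir15a, Mir363 and Snord82), 28 under the adjusted one and 31 with the floor, and 0 changed direction in these settings. With the floor the lost calls included Esrrb, Cdh1, Mixl1, Wnt3, Ddx4, Mael, Piwil4, Tex13b, Pmaip1, Btg2, Sall2 and Dll1, most of them near the array median in 1 line, where signal over background limits what a fold can show. Under the adjusted analysis of variance they included Fos, Hes1, Jak2, Dusp9, Etv4, Zic5, Phlda2, Sfrp1 and Tex19.1.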

Other observations

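Small nucleolar and Cajal body RNA genes, which guide the modification of ribosomal and spliceosomal RNA, were in part higher in P19 NTES7. Of 54 such genes measured, 12 were called higher and 0 lower by limma, with a median log2 difference of 0.59, against 1.45% of all genes called higher and a median of 0.02. In 38 of them all P19 NTES7 arrays lay above all P19 arrays, against 3446 of all 19941 genes. Snora20 measured 59, 44.8 and 42.5 in P19, 147, 180.5 and 155 in P19 NTES7 and 58.5, 60.3 and 106 in R1. Snord82 measured 102, 94.4 and 72.7 in P19, 198, 258 and 272 in P19 NTES7 and 153, 174 and 291 in R1. The call of Snord82 was lost under the methods' unadjusted analysis of variance. In both genes the third R1 array stood above the other two. The family was chosen after its values were seen.

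Mir670 and its host gene Mir670hg, also chosen after their values were seen, fell together, from 33 ± 1.52 to 10.6 ± 1.02 and from 42.9 ± 1.4 to 13 ± 1.42 (mean ± SD, n = 3 arrays). Their probe sets gave adjusted p-values of 1.02e-07 and 4.86e-07 from limma, and R1 was at 8.69 ± 0.237 and 10.2 ± 1.66.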
